A study of Oryza sativa with 8 samples.

Results

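A set of 51 rice genes was at least 3 log2 units lower in nrpd1 knockdown anthers than in wild-type (WT) anthers, while its level in pre-emerged panicles differed by less than 1 log2 unit between knockdown and WT. The genes were chosen by these measured values, from 30154 gene names, as those with an anther difference of -3 or less and an absolute panicle difference under 1. A difference here is log2(FPKM + 1) in the knockdown minus log2(FPKM + 1) in WT, where FPKM is the number of sequenced fragments divided by transcript length in kilobases and scaled to sequencing depth. The low anther level and the small panicle difference therefore follow from the choice and are a description. The panicle levels also entered the choice, since adding 1 keeps the difference of a weak gene small. The choice did not use the neighbours of a gene or its place in the genome.

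RNA sequencing was done on the indica cultivar Pusa Basmati 1 grown in a greenhouse. The 4 groups were nrpd1 knockdown anther, WT anther, nrpd1 knockdown pre-emerged panicle and WT pre-emerged panicle. Anthers were taken before they opened, and the labels list 2 libraries per group. The deposited table holds 1 value per gene and group, so no difference below has a replicate check, and no test or p-value is given. The labels used here do not give the construct behind the knockdown or the number of plants per library.

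NRPD1 is the largest subunit of RNA polymerase IV, a plant polymerase whose transcripts are turned into small interfering RNAs that guide DNA methylation, mostly at transposons and other repeats. An anther is made of pollen or its precursors, the tapetum that feeds them and the outer wall layers, and a panicle before emergence contains young spikelets with anthers of its own. A lower value in such a bulk sample can reflect fewer cells of a type or less RNA per cell, and these cannot be told apart here. Each rice identifier beginning with Os gives the chromosome and then a number that increases along it. None of the 56 identifiers carried by the 51 genes is paired with a symbol in the table or matched in the RefSeq gene table (assembly ASM3414082v1), so no function is given for any of them and they are described by level, position and row structure.

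Summed FPKM ranged from 341703 in knockdown anther to 636692 in WT anther, and the panicle columns lay between. PLIM2B, a LIM protein gene named for pollen, stood at 71.5 FPKM in knockdown anther and 541 FPKM in WT anther, and at 0.0372 FPKM in knockdown panicle and 31.8 FPKM in WT panicle. PLIM2B thus differed between the panicle columns as well as the anther columns, whereas the choice kept only genes with an absolute panicle difference under 1. DTM1, needed for tapetum and meiocyte development in rice, was present in every group, at 21.2 FPKM in knockdown anther and 38.2 FPKM in WT anther, and at 24.0 FPKM in knockdown panicle and 20.1 FPKM in WT panicle. MSP1, a receptor kinase gene of early anther development in rice, was at 3.65 FPKM in knockdown anther and 1.15 FPKM in WT anther, and at 8.50 FPKM in knockdown panicle and 2.997 FPKM in WT panicle, so it was higher in the knockdown in both tissues. MST8, a sugar transporter gene known from rice anthers, was under 1 FPKM in all groups, at 0.586 FPKM in knockdown anther and 0.0416 FPKM in WT anther. These genes, picked from 8 symbols after their values were seen, did not move one way, and nothing more is read from them. The part of pollen or tapetum content in the differences below was not tested.

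Among all gene names, 309 (1.02%) were lower by 3 or more in knockdown anther, and 85.2% differed by less than 1 in panicle. Of the 309 genes, 51 (16.5%, or 0.169% of all gene names) had the small panicle difference. Another 253 were also lower by 1 or more in knockdown panicle, and 5 were higher by 1 or more there. Most of the genes with a strong anther loss were thus also lower in knockdown panicle by 1 or more, though not necessarily by as much as in anther. The anther and panicle differences share no column.

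**Figure D1:**
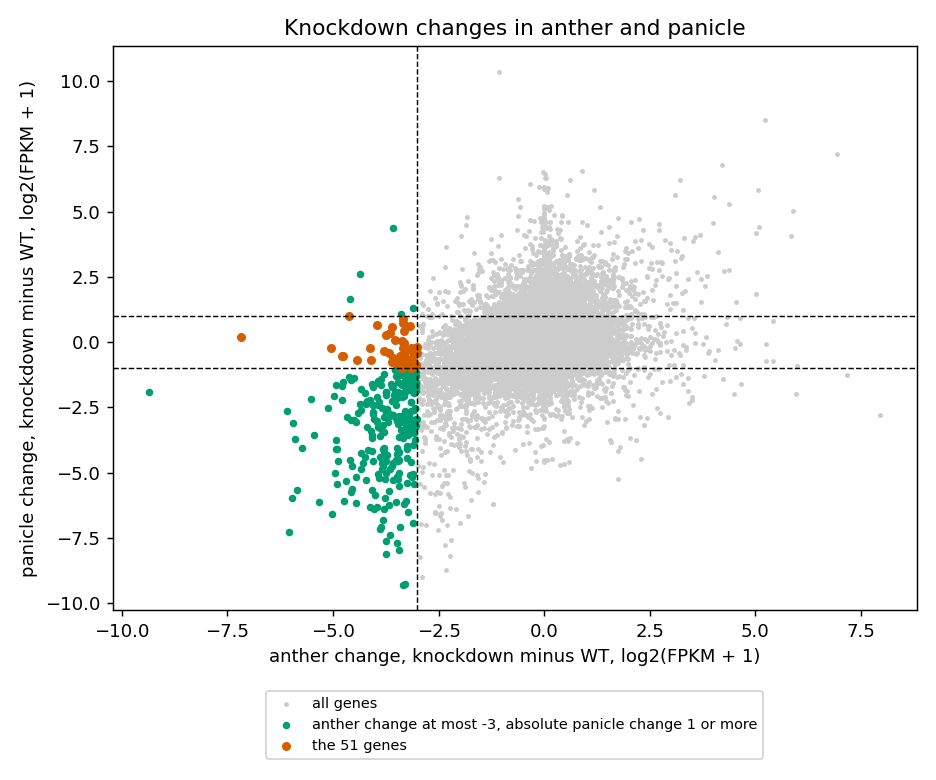
Each point is a gene, with its anther difference on the x axis and its panicle difference on the y axis, both knockdown minus WT in log2(FPKM + 1). The 51 genes lie left of -3 and between the dashed lines at -1 and 1, and most of the other genes left of -3 lie under the lower line.

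The 51 genes were moderately expressed in WT anther. Their median was 0.855 FPKM in knockdown anther (range 0 to 53.9) and 26.9 FPKM in WT anther (range 8.78 to 541). In WT anther 9 of them reached 100 FPKM and 37 lay between 10 and 100. In knockdown anther 24 still reached 1 FPKM, 9 reached 10 FPKM and 2 were listed at 0. The median gene kept 4.32% of its WT anther value, and none kept more than 11.7%. Together they made up 0.0728% of all FPKM in knockdown anther and 0.548% in WT anther. The median anther difference was -3.34, and 34 of the 51 genes lay between -3.5 and -3, close to the limit.

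At the anther limit, the last genes inside were Os04g0528100 at -3.001 and Os07g0522900 at -3.01, and the first outside were Os01g0920000 and Os01g0604900, both at -2.95. At the panicle limit, Os12g0577700 at -0.99 and Os09g0522500 at 0.99 were the last inside, and Os01g0332150 and Os06g0150300, both at -1.003, were the first outside. On either side of the anther limit and of the lower panicle limit, the differences were therefore nearly the same. The levels were not always alike, as WT anther was at 12.8 FPKM for Os12g0577700 and 74.7 FPKM for Os01g0332150. Above the upper panicle limit the nearest gene with the anther loss was Os02g0129800, at 1.09.

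**Figure D2:**
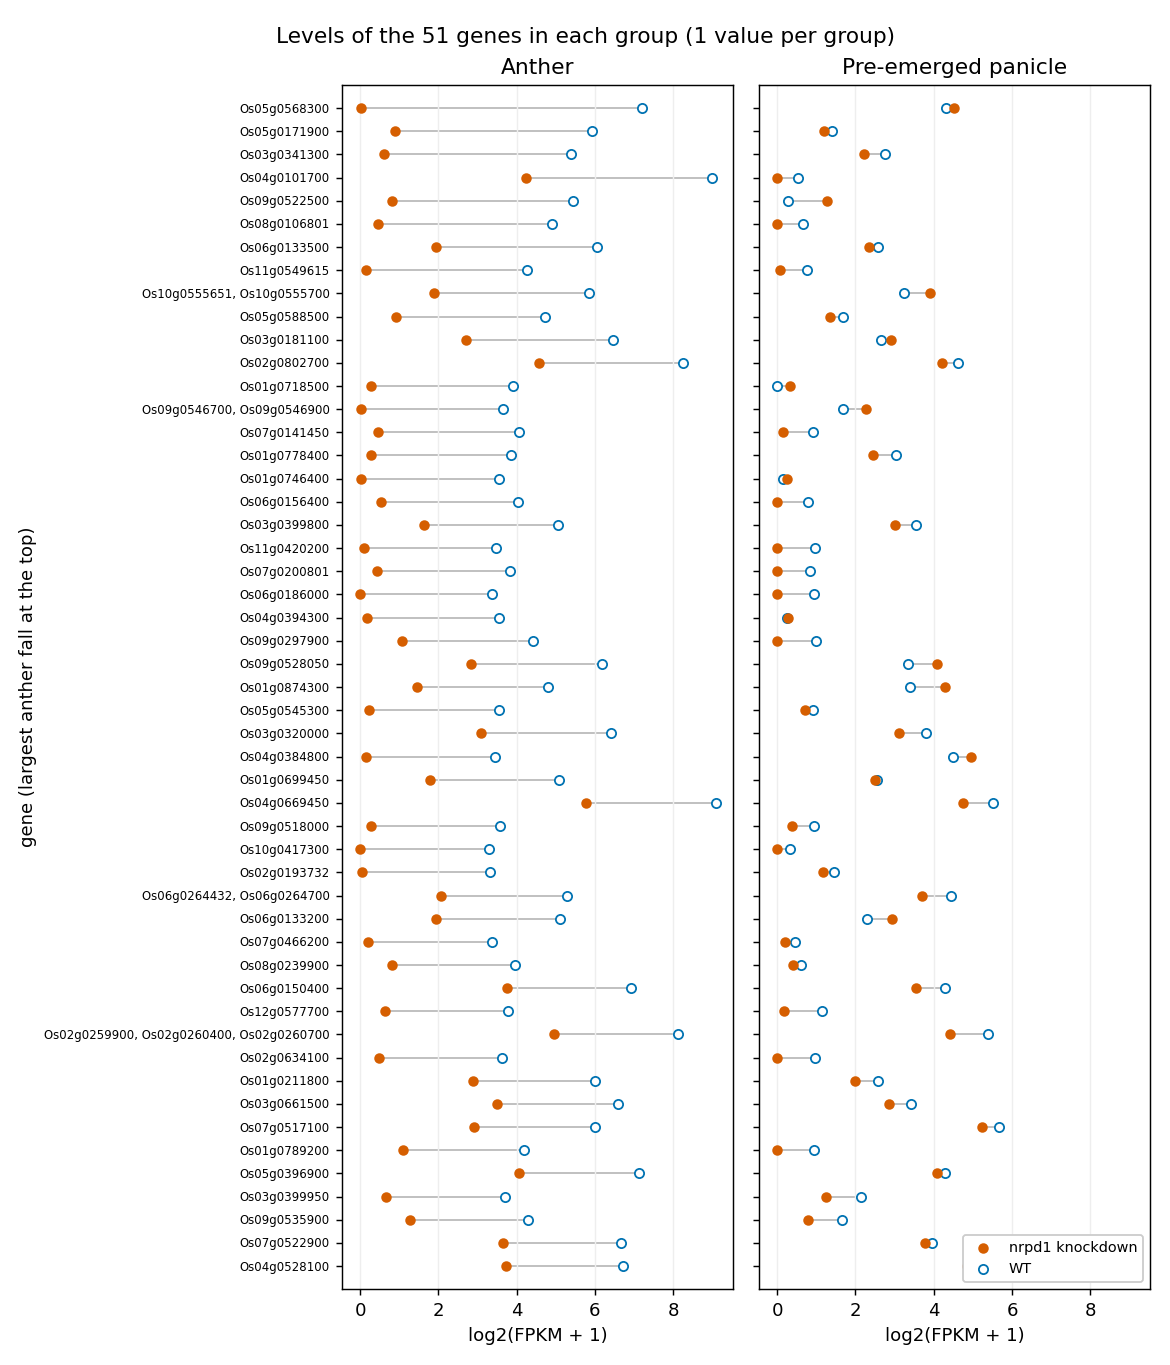
The x axes give log2(FPKM + 1) in anther (left) and panicle (right), and each line of the plot is 1 of the 51 genes, with the knockdown as filled and WT as open circles. In anther the pairs are at least 3 units apart, and in panicle they are under 1 unit apart, with many pairs near 0.

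In panicle the set divided by level. The median was 1.56 FPKM in knockdown panicle (range 0 to 36.7) and 2.21 FPKM in WT panicle (range 0 to 50.2). Of the 51 genes, 32 (62.7%) reached 1 FPKM in at least 1 panicle column, against 61.9% of all gene names. Over all gene names the medians were 1.70 FPKM in knockdown panicle and 1.85 FPKM in WT panicle. Because the panicle columns entered the choice, nothing is read from this likeness. Both panicle columns reached 1 FPKM for 29 genes, 5 FPKM for 18 genes and 10 FPKM for 11 genes.

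The other 19 genes were under 1 FPKM in both panicle columns, and for them a difference under 1 is fixed by adding 1 to the values. Their medians were 0.223 FPKM in knockdown anther and 13.1 FPKM in WT anther. In knockdown panicle 10 of the 19 were listed at 0, which is 19.6% of the 51 genes against 10.8% of all gene names. In panicle they had a highest value of 0.644 FPKM in the knockdown and a median of 0.731 FPKM in WT. With 0.1 added in place of 1, 14 of these 19 genes differed by 1 or more in panicle, 13 of them lower in the knockdown. Among the 32 genes with panicle expression, 4 did so. The same shares over all gene names are not given here, so these counts are not read as particular to the set. For these 19 genes the table therefore shows little panicle signal in either genotype, and not a panicle level that was kept.

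**Figure D3:**
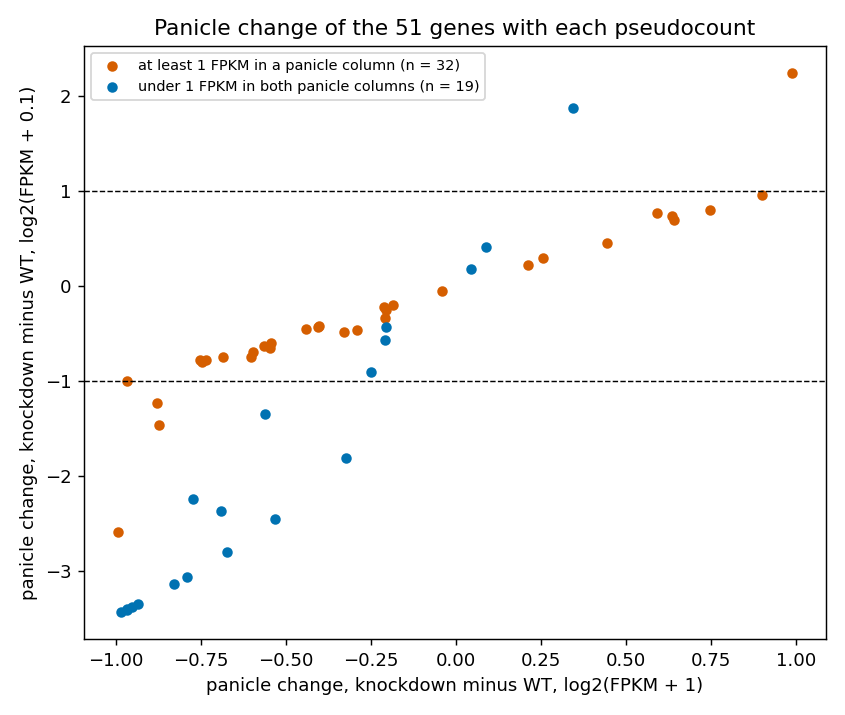
The panicle difference, knockdown minus WT, is plotted with 0.1 added (y axis) against the same with 1 added (x axis), both in log2 units, for the 51 genes. The 32 genes expressed in panicle mostly stay between the dashed lines at -1 and 1, and 14 of the 19 weak genes lie outside them.

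In 4 genes the WT anther value was no more than 2 times that of WT panicle. Os07g0517100 (chromosome 7, 19935502 to 19936636; the genome build is not given in the sources used here) stood at 6.56 FPKM in knockdown anther and 63.3 FPKM in WT anther, and at 36.7 FPKM in knockdown panicle and 50.2 FPKM in WT panicle. Os04g0384800 (chromosome 4, 18869624 to 18870465) was at 0.106 FPKM in knockdown anther and 9.97 FPKM in WT anther, and at 29.8 FPKM in knockdown panicle and 21.6 FPKM in WT panicle. It was the only one of the 51 genes whose highest value was not in WT anther. Os01g0778400 (chromosome 1, 32946456 to 32947103), singled out after its values were seen, was at 0.215 FPKM in knockdown anther and 13.5 FPKM in WT anther, and at 4.42 FPKM in knockdown panicle and 7.19 FPKM in WT panicle. The row joining Os06g0264432,Os06g0264700 (chromosome 6, 8739278 to 8746084) was at 3.21 FPKM in knockdown anther and 37.8 FPKM in WT anther, and at 12.0 FPKM in knockdown panicle and 20.7 FPKM in WT panicle. All 4 were expressed in panicle of both genotypes.

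The following genes with high panicle levels were far more abundant in WT anther. Os04g0669450 (chromosome 4, 34138162 to 34145041) was the most abundant of the set, at 53.9 FPKM in knockdown anther and 541 FPKM in WT anther, and at 25.9 FPKM in knockdown panicle and 44.3 FPKM in WT panicle. Os02g0802700 (chromosome 2, 34223101 to 34227732) was at 22.8 FPKM in knockdown anther and 300.5 FPKM in WT anther, and at 17.4 FPKM in knockdown panicle and 23.5 FPKM in WT panicle. The WT panicle value was 8.19% of WT anther for Os04g0669450 and 7.81% for Os02g0802700. Os05g0396900 (chromosome 5, 19310986 to 19313688) was at 15.6 FPKM in knockdown anther and 138 FPKM in WT anther, and at 15.9 FPKM in knockdown panicle and 18.5 FPKM in WT panicle. Os06g0150400 (chromosome 6, 2587724 to 2592248) was at 12.5 FPKM in knockdown anther and 120.0 FPKM in WT anther, and at 10.6 FPKM in knockdown panicle and 18.5 FPKM in WT panicle. In both, the 3 values other than WT anther lay within 2 times of each other. A row joining Os02g0259900,Os02g0260400,Os02g0260700 (chromosome 2, 9016580 to 9088535) was at 30.2 FPKM in knockdown anther and 275 FPKM in WT anther, and at 20.4 FPKM in knockdown panicle and 40.9 FPKM in WT panicle. Its panicle difference of -0.97 lay at the limit.

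The largest anther loss was that of Os05g0568300 (chromosome 5, 28296563 to 28300466), at 0.0184 FPKM in knockdown anther and 147 FPKM in WT anther, a difference of -7.18, with 22.0 FPKM in knockdown panicle and 18.8 FPKM in WT panicle. Os05g0171900 (chromosome 5, 4301361 to 4309494) followed, at 0.855 FPKM in knockdown anther and 59.8 FPKM in WT anther, a difference of -5.04, with 1.28 FPKM in knockdown panicle and 1.63 FPKM in WT panicle. Os03g0341300 (chromosome 3, 12729183 to 12731879) was at 0.528 FPKM in knockdown anther and 41.1 FPKM in WT anther, a difference of -4.79, with 3.62 FPKM in knockdown panicle and 5.75 FPKM in WT panicle. All 3 stood under 1 FPKM in knockdown anther and over 1 FPKM in both panicle columns. For Os05g0568300 these are sums, and its anther and panicle values came mostly from different rows, as described below.

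Os04g0101700 (chromosome 4, 115619 to 119811) behaved otherwise. It stood at 17.8 FPKM in knockdown anther and 510.3 FPKM in WT anther, a difference of -4.76, but it was listed at 0 in knockdown panicle and at 0.447 FPKM in WT panicle. Its WT panicle value was 0.0876% of its WT anther value. Among 179 other genes that reached 200 FPKM in WT anther and exceeded their knockdown panicle value 100 times or more, the median was 7.34% with quartiles of 6.45% and 8.51%. Os04g0101700 was thus read almost wholly in anther, while most of these abundant anther genes also had a value in WT panicle of several percent.

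Of the remaining genes among the 10 largest losses, Os09g0522500 (chromosome 9, 20402814 to 20404728) was at 0.757 FPKM in knockdown anther and 42.4 FPKM in WT anther, and at 1.42 FPKM in knockdown panicle and 0.220 FPKM in WT panicle. Its panicle difference was 0.99 with 1 added and 2.25 with 0.1 added. Os06g0133500 (chromosome 6, 1784967 to 1786080) was at 2.83 FPKM in knockdown anther and 65.6 FPKM in WT anther, and at 4.13 FPKM in knockdown panicle and 4.92 FPKM in WT panicle. The knockdown anther value of Os06g0133500 lay under both panicle values, and so did that of the row joining Os10g0555651,Os10g0555700 (chromosome 10, 21830152 to 21837814). That row was at 2.73 FPKM in knockdown anther and 56.9 FPKM in WT anther, and at 13.9 FPKM in knockdown panicle and 8.53 FPKM in WT panicle. Os08g0106801 (chromosome 8, 334896 to 338479) and Os11g0549615 (chromosome 11, 20336763 to 20340697) were anther genes with little panicle signal. Os08g0106801 was at 0.384 FPKM in knockdown anther and 28.9 FPKM in WT anther, and at 0 in knockdown panicle and 0.596 FPKM in WT panicle. Os11g0549615 was at 0.114 FPKM in knockdown anther and 18.1 FPKM in WT anther, and at 0.0565 FPKM in knockdown panicle and 0.707 FPKM in WT panicle. Os05g0588500 (chromosome 5, 29312929 to 29314871), described further with its neighbour, was at 0.880 FPKM in knockdown anther and 25.2 FPKM in WT anther, and at 1.56 FPKM in knockdown panicle and 2.21 FPKM in WT panicle.

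Within the limit of 1, panicle values leaned lower in the knockdown. The panicle difference was itself part of the choice, and 253 of the 309 genes with the anther loss were lower by 1 or more in panicle. The lean is therefore a description and is not read as a property of the set. Over the 32 genes expressed in panicle the median difference was -0.37, with 23 lower and 9 higher, and 13 were lower by at least 0.5 against 6 higher by at least 0.5. Among all 14192 genes expressed in panicle and within 1 (76.1% of the genes expressed there), the median was -0.05, 15.1% were lower by at least 0.5 and 14.9% were higher by at least 0.5. Differences below 0 were found for 54.2% of them, against 71.9% of the 32 genes. The 29 genes at 1 FPKM or more in both panicle columns had between 41.0% and 196% of their WT panicle value in the knockdown. Among the 6 higher genes, Os01g0874300, singled out after its values were seen, stood at 18.6 FPKM in knockdown panicle and 9.48 FPKM in WT panicle, and at 1.76 FPKM in knockdown anther and 26.9 FPKM in WT anther. The lean depended on WT panicle as deposited: with 7.34% of the WT anther value taken from each WT panicle value, the median difference of the 32 genes was 0.79, 2 were lower and 18 higher by at least 0.5. That subtraction can move the values upward only.

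The anther-to-panicle contrast shares columns with the choice and is given as a description. Between anther and panicle of the knockdown, 4 of the 51 genes were higher in anther by at least 1 and 13 were lower, against 8.8% and 14.1% of all gene names. In WT, 47 were higher in anther by at least 1 and 1 was lower, against 12.8% and 11.4% of all gene names. The median anther-minus-panicle difference was -0.09 in the knockdown and 2.83 in WT. In 27 genes knockdown anther was under both panicle columns, in 7 it was above both, and in 17 it lay between them or equalled one. The 253 genes that were also lower in knockdown panicle kept a median anther-minus-panicle difference of 2.23 in the knockdown, and had 3.37 in WT.

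Set beside those 253 genes, the 51 were less abundant in WT anther (medians of 26.9 and 121 FPKM) and in WT panicle (medians of 2.21 and 19.7 FPKM). Values under 1 FPKM in knockdown panicle were found for 21 of the 51 (41.2%) and for 179 of the 253 (70.8%). A gene under 1 FPKM in WT panicle, as 20 of the 51 were, cannot reach a panicle difference of -1, so weak genes fall to the smaller set by construction. The WT panicle value was a median of 9.42% of WT anther for the 51 (quartiles 5.11% and 14.9%) and 8.68% for the 253 (quartiles 7.03% and 19.2%). In knockdown panicle the median gene had 62.2% of its WT panicle value in the smaller set, and 1.05% in the larger one. The sets were divided by the panicle difference itself, so this contrast follows from the choice. The shares under 1 FPKM in knockdown panicle are shaped by it too, and neither is read as a result. PLIM2B, which differed between the panicle columns in the same direction as the 253 genes, is the one pollen-named gene given above, and the part of pollen content in the panicle values was not tested.

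**Figure D4:**
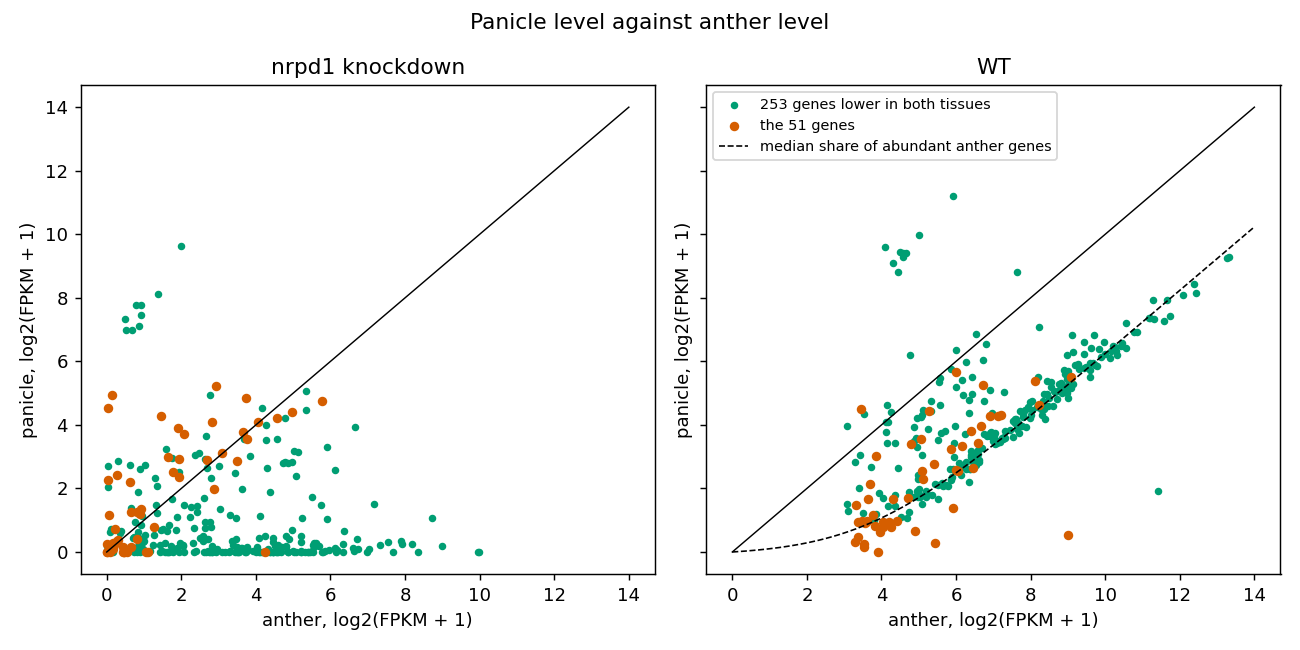
Panicle level (y axis) is plotted against anther level (x axis) in log2(FPKM + 1) for the knockdown (left) and WT (right), with the 51 genes and the 253 genes lower in both tissues; the solid line marks equal levels and the dashed curve marks 7.34% of the anther value. In WT many of the 253 genes follow the dashed curve, while a number of the 51 lie above it and Os04g0101700 lies far under it. The 179 genes behind the curve were chosen partly for a low knockdown panicle value. They exclude the 51 but can include some of the 253, so this contrast is partly built in and is not read as a result.

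The table gives 28 of the 51 gene names (54.9%) 2 rows at the same locus, and 45.3% of all gene names have 2 or more rows. In 26 of these 28 the row that was larger in WT anther was not the smaller one in WT panicle. That larger row held a median of 97.1% of the WT anther FPKM of its gene. Os05g0568300 and Os04g0528100 were the exceptions, and for them most of the anther and most of the panicle signal came from different rows. In Os05g0568300, 1 row stood at 0.0184 FPKM in knockdown anther and 147 FPKM in WT anther, with 0.678 FPKM in knockdown panicle and 4.49 FPKM in WT panicle. The other row was at 0 in knockdown anther and 0.251 FPKM in WT anther, with 21.3 FPKM in knockdown panicle and 14.3 FPKM in WT panicle. Taken alone, the anther row of Os05g0568300 had a panicle difference of -1.71 and would not be in the set.

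Os04g0528100 (chromosome 4, 26387548 to 26391558) showed the same division. Its first row was at 0.0976 FPKM in knockdown anther and 92.4 FPKM in WT anther, a difference of -6.41, with 0.180 FPKM in knockdown panicle and 0.604 FPKM in WT panicle. Its second row was at 12.1 FPKM in knockdown anther and 12.6 FPKM in WT anther, with 27.5 FPKM in knockdown panicle and 36.3 FPKM in WT panicle. The anther loss of Os04g0528100 thus lay in 1 row, and the second row differed by -0.05 in anther and -0.39 in panicle. Whether the rows are transcript forms of the gene or overlapping models is not stated in the table.

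**Figure D5:**
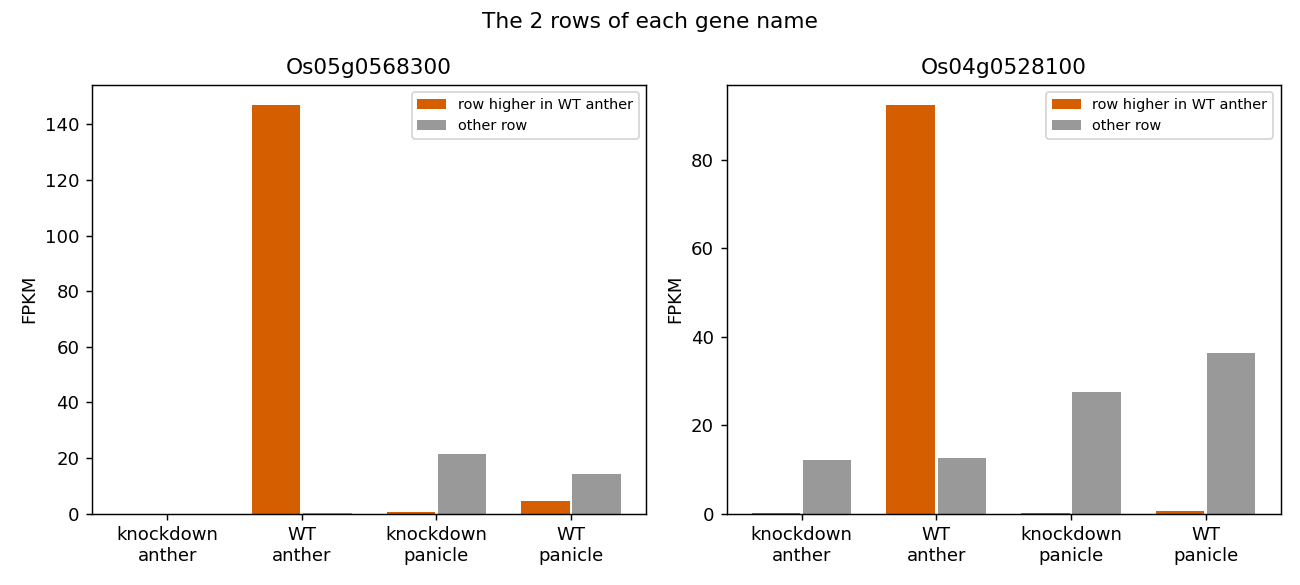
Bars give FPKM (y axis, from 0) of the 2 rows of Os05g0568300 and Os04g0528100 in knockdown anther, WT anther, knockdown panicle and WT panicle. In each gene 1 row is high in WT anther, and the other carries most of the panicle signal, 76.1% of it in WT panicle for Os05g0568300 and 98.4% for Os04g0528100.

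At 18 of the 51 loci (35.3%, against 43.6% of all gene names) the table lists another gene name. Rows that join several names make up 4 of the 51 (7.84%, against 5.30% of all gene names). The library kit keeps strand, but the sources used here do not give whether strand was used in the counting, so reads of overlapping genes may be shared. At least 1 FPKM in an anther column was reached by 18 of these other names, and 4 of the 18 repeat an identifier of the 51 genes. Of the 14 that do not, 10 were lower by 1 or more in knockdown anther, 6 of them by 3 or more, and none was higher by 1 or more. Among all genes so expressed, with the 51 included, 17.6% were lower by 1 or more and 1.72% by 3 or more. All 6 were also lower by 1 or more in knockdown panicle. Genes with such an anther loss outside the 51 differ by 1 or more in panicle by construction. Of these, 253 were lower there and 5 higher, so this is not read as a result about the loci.

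In 5 of the 51 genes the other name at the locus was the more abundant in WT anther. Os05g0588550, beside Os05g0588500, was at 36.7 FPKM in knockdown anther and 1508 FPKM in WT anther, and at 1.11 FPKM in knockdown panicle and 147 FPKM in WT panicle. The row Os12g0577733,Os12g0577766 beside Os12g0577700 was at 16.4 FPKM in knockdown anther and 510.3 FPKM in WT anther, and at 1.22 FPKM in knockdown panicle and 51.0 FPKM in WT panicle. Os01g0791151, which shares its locus with Os01g0789200, was at 32.7 FPKM in knockdown anther and 504 FPKM in WT anther, and at 0 in knockdown panicle and 36.1 FPKM in WT panicle. These 3 partners were lower in both tissues. So was Os07g0141500 beside Os07g0141450, with differences of -4.24 in anther and -1.95 in panicle. Of the weaker genes at the same loci, Os12g0577700 was at 0.122 FPKM in knockdown panicle and 1.23 FPKM in WT panicle, and Os01g0789200 was at 0 in knockdown panicle and 0.937 FPKM in WT panicle, so with 0.1 added they too were lower there, by differences of -2.59 and -3.38. On that scale the panicle difference was -2.23 for Os07g0141450 and -0.48 for Os05g0588500. Os05g0172000, beside Os05g0171900, was lower by 2.26 in knockdown anther and had a panicle difference of -0.38, so that both genes of this locus kept their panicle values within the limit. The partner genes, Os01g0789200 and Os07g0141450 were picked once their values were known.

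The 51 genes lay on every chromosome, from 1 gene on chromosome 12 to 7 on chromosome 1. Chromosome 9, singled out after the counts were seen, held 6 of them, 11.8% of the set against 5.71% of all gene names. Chromosomes 3 and 6 also held 6 each, with 12.7% and 8.09% of all gene names. These counts are small and no test was made. The median locus spanned 2847 bp, against 4405 bp over all gene names. Identifiers not ending in 00 were carried by 11 of the 51 (21.6%) and by 16.2% of all names that begin with Os and a chromosome number.

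Only 2 pairs of the set lay within 20 kb of each other. Os06g0133200 and Os06g0133500 on chromosome 6 were 7294 bp apart. Os06g0133200 was at 2.81 FPKM in knockdown anther and 33.4 FPKM in WT anther, and at 6.58 FPKM in knockdown panicle and 3.89 FPKM in WT panicle, so its panicle difference of 0.63 had the opposite sign to the -0.21 of its neighbour. Os03g0399800 and Os03g0399950 on chromosome 3 were 4282 bp apart. Os03g0399800 was at 2.12 FPKM in knockdown anther and 32.5 FPKM in WT anther, and at 7.00 FPKM in knockdown panicle and 10.7 FPKM in WT panicle. Os03g0399950 was at 0.584 FPKM in knockdown anther and 12.0 FPKM in WT anther, and at 1.39 FPKM in knockdown panicle and 3.40 FPKM in WT panicle. This pair had like profiles at different levels, and both pairs were picked out for their distance.

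Flanking genes were counted without the other names at the shared loci, 6 of which were lower by 3 or more as given above. Outside those loci, 162 other genes within 20 kb of the 51 had at least 1 FPKM in an anther column. Of these, 40 (24.7%) were lower by 1 or more in knockdown anther and 8 (4.94%) were higher, against 17.6% and 7.37% of all genes so expressed. By 3 or more, 2 of the 162 (1.23%) were lower, near the 1.72% of all genes so expressed. The shares of all genes include the 51 themselves, which the 162 leave out. Their median anther difference was -0.25, against -0.15. Genes that flank each other share loci and are not independent, and no test was made.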

How the data were processed

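Strand-keeping RNA libraries from 4 groups were analysed, with 2 replicates per group in the labels. The deposited table holds FPKM as the authors' single value per gene and group, per the file headers, and how replicates were combined is not given in the sources used here. Trimmomatic, HISAT2 and Cufflinks 2.2.1 are named, with no role, per the submitters' processing notes. The genome build and annotation are not given in the sources used here. Whole reads were not recovered from low values: where both anther columns were under 0.05 FPKM (1889 rows), no ratio between them, rounded to 2 decimals, recurred in more than 2.44% of rows, and in panicle (1044 rows) in more than 3.26%. Depth is therefore unknown and no interval is given.

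Rows were summed by gene name (43897 rows, 30154 names), and differences were taken of log2(FPKM + 1), which understates changes of weak genes. A gene counted as expressed at 1 FPKM. The limma alternatives need replicate columns and were not run. The genes and lists were chosen with earlier results of these data known. Named are the 10 genes with the largest anther loss, the 10 with the highest panicle mean, genes at the limits and neighbours. The naming rule would have held unannotated identifiers to 2, and the others are printed because they are the genes described. The lists of functions and tissue markers rested on descriptions, which no table used here gives, so they could not be applied. PLIM2B, DTM1, MSP1 and MST8, of 8 symbols looked up, were chosen after their values were seen. NRPD1 could not be located by name and is not analysed here, so the knockdown was not checked. Python 3.11.15, numpy 2.4.6, pandas 2.3.3 and matplotlib 3.10.9 were used, and the selection was tested on simulated data.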

Additional observations from a re-analysis of the deposited data

How the results depend on the processing

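No paired analysis was possible because each group is a single column without replicate numbers. The set of 51 genes depends on its limits and scaling, and depth is unknown. Adding 0.1 in place of 1 gave 139 genes, of which 33 were among the 51. A mean of at least 5 FPKM left 31, equal column totals 15, a panicle minimum of 1 FPKM 32, and leaving out shared loci 33. An anther limit of -2 gave 328 and of -4 gave 8, and a panicle limit of 0.5 gave 20. Subtracting the anther share from WT panicle gave 162, 38 of them among the 51, and turned the median panicle difference of the 32 expressed genes to 0.79, with 2 lower and 18 higher by 0.5 or more. Median centring gave 45 genes, quantile normalization 35, rows as deposited 58 and leaving out joined rows 47. Equal totals moved the median anther difference of genes expressed there to 0.60, from -0.15 as deposited. Of the 51 genes, 43 still met both limits after median centring, 31 after quantile normalization and 15 with equal totals. Under every scaling tried (median centring, quantile normalization, equal totals) each of the 51 genes stayed at -2 or less in anther. The genes were chosen by a larger anther loss than that. For median centring and equal totals the result follows from the choice, and it is not read as a check of the set. The panicle minimum, shared loci, joined rows and the subtraction's effect on the set were chosen after seeing the data.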
